A study of Homo sapiens with 33 samples.

Results

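CHIR-99021, a small-molecule inhibitor of the kinase GSK3 that is used as a Wnt pathway agonist, was tested in Nalm6, an established human cell line of B-cell precursor acute lymphoblastic leukaemia. The comparison takes the 3 libraries of parental Nalm6 cells that received 0.5 µM CHIR-99021 for 24 h and the 3 libraries of untreated parental Nalm6 cells whose titles mark them as controls, 6 of the 33 libraries of the study. The libraries were chosen by sample title and not by a measured value, though earlier results of these data were known. Both groups are the parental line, without the TLE1 knockout of other libraries in the study, and were grown in RPMI-1640 with charcoal-stripped serum, per the labels. The series text counts 3 experiments as independent, and the untreated libraries are labelled as having no treatment, with no vehicle named. The treatment protocol in the labels gives prednisolone, not CHIR-99021, to parental cells. The titles, the treatment field and the series text all give CHIR-99021, and they were followed. Other libraries of the study stand beside the comparison below: CEM, a T-cell leukaemia line, untreated and with 2 µM CHIR-99021 (3 and 3 libraries), parental Nalm6 with 100 nM dexamethasone for 24 h (3 libraries), and the untreated Nalm6 libraries of that dexamethasone experiment (3 libraries), called the second untreated set here.

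In resting cells GSK3 works inside the destruction complex, where the scaffolds AXIN and APC hold β-catenin so that GSK3 can phosphorylate it and mark it for degradation. When GSK3 is inhibited, β-catenin accumulates, enters the nucleus and binds the TCF/LEF factors, and genes such as AXIN2 and LEF1 are the usual readouts of that step. GSK3 has many other substrates, among them glycogen synthase, MYC and microtubule-associated proteins, and it is itself inhibited by the kinase AKT in the PI3K pathway, which also keeps the FOXO transcription factors out of the nucleus. In precursor B cells, FOXO1 takes part in the expression of IL7R and of the RAG recombinase genes.

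Gene counts per library ran from 49011382 to 61930057 in the untreated group and from 39113375 to 53912673 in the CHIR-99021 group. The lineage label was met: all 12 markers of B-precursor leukaemia were above 1 CPM (counts per 1000000 gene counts), with a summed level of 5421 to 5531 CPM in untreated and 5094 to 5164 CPM in treated libraries. Of 11 T-cell markers, CD3D, CD3E, CD2, CD5, CD7 and CD8A had no count in any of the 6 libraries. The summed T-cell level was 6.23 to 7.10 CPM untreated and 7.85 to 10.9 CPM treated, and TRAC made up most of it. The 10 NK-cell markers summed to 2.61 to 3.54 and 2.58 to 3.04 CPM, the 11 myeloid markers to 7.38 to 9.37 and 8.94 to 10.3 CPM, the 8 erythroid markers to at most 0.775 CPM, and the 10 stromal and endothelial markers to 6.39 to 7.99 and 5.27 to 5.91 CPM. In these bulk samples fewer cells of a type and less RNA per cell cannot be told apart.

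Replicate 3 of the CHIR-99021 group stood apart from the other treated libraries. The chi-square per degree of freedom between its counts and those of replicates 1 and 2 was 42.1 and 43.7, against 5.77 between replicates 1 and 2 and 2.54 to 4.13 between untreated libraries. Its mitochondrial share of counts was 0.444%, against 0.661% and 0.716% in the other treated and 0.647% to 0.685% in the untreated libraries. Single genes were low in that library alone: RPS16, a ribosomal protein gene, stood at 66.6 CPM against 464 and 496, HNRNPH3 at 33.2 against 111 and 119, and APEX1 at 84.6 against 237 and 250. None of these 3 genes was called. Counts below are therefore given with and without that library, and the part of these differences in the results was not tested.

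With all libraries, 18082 genes were tested by edgeR's quasi-likelihood F test and 1425 of them (7.88%) were called at a Benjamini-Hochberg adjusted p under 0.05. Of these, 571 rose (3.16% of the genes tested) and 854 fell (4.72%). The changes were mostly small, since 57 genes (0.315%) passed an absolute log2 fold change of 1, 28 higher (0.155%) and 29 lower (0.16%). The treated and untreated libraries did not overlap for 2530 genes in the higher direction (14%) and 2873 in the lower (15.9%). Without replicate 3 of the CHIR-99021 group 2708 of 18303 genes were called (14.8%), 1356 higher (7.41%) and 1352 lower (7.39%), and 1391 of the 1425 genes were among them. The count fell to 779, 428 and 409 without untreated replicates 1, 2 and 3, and was 820 and 1275 without treated replicates 1 and 2. Among more abundant genes, those with an average log2 CPM of at least 4, the share called was 12.4% of 8335, and this is the nearer background for the lists of abundant genes below.

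Neither of the usual Wnt readouts was called. AXIN2, a negative regulator and direct target of the pathway, stood at 3.52, 3.77 and 3.81 CPM in the untreated and 3.17, 3.26 and 3.25 CPM in the treated libraries. Every treated library was below every untreated one, and the log2 fold change of -0.19 ± 0.09 was not called (edgeR adjusted p = 0.221). LEF1, which encodes a β-catenin partner, was at 509, 534 and 529.8 and 562, 545 and 517 CPM, with overlapping groups (log2 fold change 0.05 ± 0.05, edgeR adjusted p = 0.615). Of 16 listed Wnt target genes 9 had enough counts to be tested and 1 was called, MYC, which was lower (722, 741 and 752 against 636, 659 and 592 CPM, log2 fold change -0.23 ± 0.05, edgeR adjusted p = 0.0245). That call was lost without untreated replicate 1, 2 or 3 and without treated replicate 1. ZNRF3, a ubiquitin ligase that removes Wnt receptors, changed by 0.21 ± 0.06 (edgeR adjusted p = 0.0641) and was called only when treated replicate 3 was left out (0.27, edgeR adjusted p = 0.00512). TCF7, NKD1, RNF43, SP5, NOTUM, TNFRSF19 and CCND1 were too low to test, each at a mean of at most 0.174 CPM. LGR5 and APCDD1 changed by -0.02 and 0.02, and the median over the 9 tested members was 0.02, beside -0.01 over all genes tested. The 1 call among 9 stands beside 7.88% of all genes tested.

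Upstream of those targets, the components of the pathway moved little. For the counts in these lists, the background was 4.72% lower and 3.16% higher among all genes tested. GSK3A, GSK3B and CTNNB1, which encode both forms of the inhibited kinase and β-catenin, had log2 fold changes of -0.13 ± 0.06, 0.02 ± 0.05 and -0.03 ± 0.04, and none was called. In the list of the destruction complex and signal transducers 2 of 25 tested genes fell and none rose, and these were FRAT1 and FRAT2, whose products bind GSK3. FRAT1 was at 6.46, 6.55 and 6.62 CPM untreated and 4.04, 4.52 and 3.73 CPM treated, and FRAT2 at 17.9, 18.1 and 17.4 and 13.0, 13.6 and 13.3 CPM. The groups did not overlap for either gene, and the log2 fold changes were -0.67 ± 0.09 and -0.41 ± 0.05 (edgeR adjusted p = 0.00181 and 0.00144). Among 17 tested ligands and receptors only LGR6, a receptor for R-spondins, was called in the fit of all libraries (40.1, 42.2 and 44.1 against 19.8, 22.4 and 20.5 CPM, log2 fold change -1.01 ± 0.06, edgeR adjusted p = 5.25e-05). Of 14 tested TCF/LEF factors, co-activators and TLE co-repressors 3 fell and none rose: TLE2 (-0.52 ± 0.10, edgeR adjusted p = 0.00978), TCF7L2 (-0.39 ± 0.10, 0.0385) and TLE4 (-0.17 ± 0.04, 0.0392). TLE4 was called in none of the fits that left out another library than treated replicate 3, and the list held 6 falls without that replicate and no call without untreated replicate 3. TLE1 stood at 30.2, 34.0 and 31.8 and 27.3, 29.1 and 28.3 CPM and was not called (log2 fold change -0.18 ± 0.05, edgeR adjusted p = 0.0764). NLK, a kinase that acts on TCF/LEF factors and was picked after its value was seen, rose from 66.5 ± 0.40 to 84.1 ± 4.40 CPM (SD, n = 3; log2 fold change 0.34 ± 0.04, edgeR adjusted p = 0.00134).

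The 14 largest rises, among called genes with an average log2 CPM of at least 1 and groups that do not overlap, were led by GZMA, which encodes a granule protease of cytotoxic lymphocytes. GZMA stood at 1.28, 1.06 and 0.940 CPM in untreated and 5.85, 5.65 and 4.92 CPM in treated cells, which is 2.31 ± 0.13 on the log2 scale (edgeR adjusted p = 3.86e-05). The lowest treated library was far above the highest untreated one, though the choice of genes already requires that the groups do not overlap. No other cytotoxic granule gene joined it: GZMK was at 1.95, 2.02 and 1.67 and 3.07, 2.05 and 1.95 CPM (edgeR adjusted p = 0.332), PRF1 was at a mean of 0.0331 and 0.0627 CPM, and NKG7 changed by -0.10. CTSC, the protease that activates granzymes, rose from 103 ± 3.59 to 128 ± 1.97 CPM (SD, n = 3; log2 fold change 0.31 ± 0.04, edgeR adjusted p = 0.00144). These were the only calls, both higher, among 8 tested granzymes and granule proteases, beside 3.16% called higher among all genes tested.

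BCL6 and IKZF3, transcription factors of the B lineage, were also among those rises. BCL6, a repressor known from germinal centre B cells and from pre-B cells, was at 16.8, 13.1 and 14.9 CPM untreated and 40.1, 31.8 and 28.3 CPM treated (log2 fold change 1.15 ± 0.12, edgeR adjusted p = 0.000531). IKZF3, which encodes the Ikaros family factor Aiolos, went from 2.76, 2.26 and 3.03 to 6.11, 5.16 and 4.99 CPM (1.00 ± 0.12, edgeR adjusted p = 0.00115). The lack of overlap between treated and untreated libraries in these rises is required by the choice of genes. CD96, a surface receptor of T and NK cells, was at 2.52, 2.10 and 2.39 and 6.57, 5.04 and 4.62 CPM (1.19 ± 0.14, edgeR adjusted p = 0.000927). HOMER2, a scaffold protein gene, was at 5.36, 5.18 and 5.36 and 14.5, 11.3 and 10.9 CPM (1.19 ± 0.10, edgeR adjusted p = 0.000272), and CCM2L at 4.39, 4.71 and 4.16 and 11.2, 10.3 and 9.87 CPM (1.24 ± 0.08, edgeR adjusted p = 5.25e-05). The remaining 8 were RHEX (1.02), HIC1 (0.92), the non-coding RNA LINC02964 (0.90), the phospholipase gene PLCH1 (0.88), the interferon lambda receptor IFNLR1 (0.87), RAPGEF4 (0.86), PHLDA1 (0.79) and TRD-AS1 (0.78). TRD-AS1 was not called without untreated replicate 3 (0.67, edgeR adjusted p = 0.0587), and the other 13 were called in every alternative that gave them a value.

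Several of these levels were matched or passed in the second untreated set. There GZMA stood at 9.22, 9.05 and 8.07 CPM, above every library with CHIR-99021, and CCM2L at 12.6, 13.3 and 14 and CD96 at 10.3, 9.23 and 10.00 CPM. BCL6, at 28.8, 27.8 and 29.9 CPM, had a mean of 28.8 CPM, below its CHIR-99021 mean of 33.4 CPM. The mean of the second untreated set was at or beyond the CHIR-99021 mean for 6 of the 14 rises and 2 of the 14 falls. Among the rises for which it was not were BCL6, IKZF3 (3.28, 3.08 and 3.72 CPM) and IFNLR1 (1.58, 1.75 and 1.87 CPM). Over all calls the second set's mean was at or beyond the CHIR-99021 mean for 97 of the 571 rises (17.0%) and 169 of the 854 falls (19.8%). For all tested genes with a positive and a negative log2 fold change of any size the shares were 29.6% and 47.0%. Among calls past a log2 fold change of 1 they were 8 of 28 rises (28.6%) and 6 of 29 falls (20.7%). On the log2 scale, the second set's mean lay nearer the CHIR-99021 mean than the untreated mean for 17 of these rises (60.7%) and 10 of these falls (34.5%). Both untreated sets carry the same labels for line and treatment, and the experiment they belong to cannot be told apart from other conditions that differ between them.

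**Figure D1:**
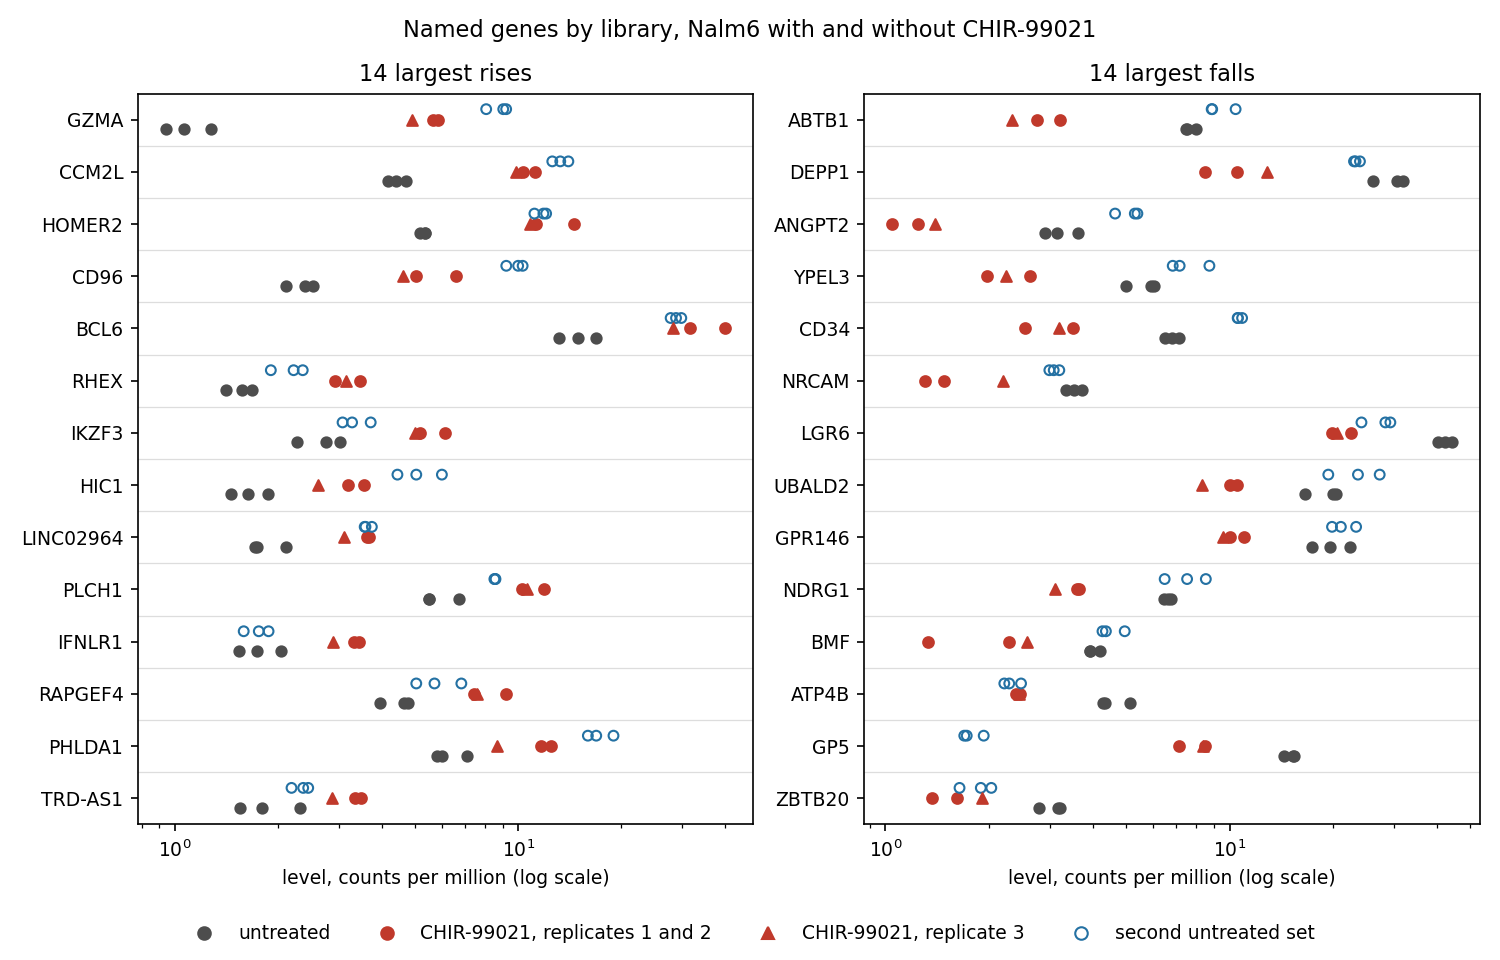
Levels of the 14 largest rises (left) and falls (right) in Nalm6, in CPM on a log scale. Each point is 1 library: untreated (grey), CHIR-99021 (red, with replicate 3 as a triangle) and the second untreated set (open blue). Untreated and treated libraries do not overlap in any row, which the choice of genes requires, and the second untreated set lies above the treated libraries for GZMA, CCM2L, CD96, HIC1 and PHLDA1 and below them for GP5.

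The largest falls were led by ABTB1 and DEPP1, both on the list of genes driven by FOXO factors. ABTB1 was at 7.99, 7.47 and 7.51 CPM untreated and 2.76, 3.22 and 2.34 CPM treated (log2 fold change -1.47 ± 0.11, edgeR adjusted p = 0.000144). DEPP1 was at 26, 30.5 and 31.9 and 8.49, 10.5 and 12.8 CPM (-1.46 ± 0.12, edgeR adjusted p = 0.000221). The highest treated library lay well below the lowest untreated one in both, though the choice of the largest falls already requires no overlap. YPEL3, a growth-suppressive member of the yippee-like family, was at 5.01, 6.02 and 5.92 and 1.97, 2.63 and 2.24 CPM (-1.29 ± 0.12, edgeR adjusted p = 0.00034). CD34, the surface marker of early haematopoietic progenitors, was at 7.12, 6.79 and 6.48 and 3.50, 2.55 and 3.19 CPM (-1.15 ± 0.11, edgeR adjusted p = 0.00034). ANGPT2 (-1.37) was called on strand-specific counts but not on unstranded counts (-0.21, edgeR adjusted p = 0.165). The others were the adhesion molecule NRCAM (-1.07), LGR6, UBALD2 (-0.98), GPR146 (-0.96), NDRG1 (-0.93), the pro-apoptotic gene BMF (-0.93), ATP4B (-0.92), the platelet glycoprotein gene GP5 (-0.90) and ZBTB20 (-0.90). BMF was not called without untreated replicate 3 (-0.94, edgeR adjusted p = 0.0509).

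Promoter sequence was available for 21 of these 28 genes in RefSeq's table of GRCh38.p14, which covers 250 bases before to 50 bases after each gene's start. 3 motifs were searched on both strands: TGTTTAC for forkhead factors such as the FOXO proteins, CTTTGAT for TCF/LEF factors, and the palindrome CACGTG, the E-box bound by MYC and related factors. None of the 3 contains another. The forkhead letters were present in 36 of 634 promoters of genes that fell (5.68%), 8 of 429 of genes that rose (1.86%), 257 of 10886 of all genes tested (2.36%) and 3.41% of all promoters in the table. The E-box was present in 69 of 429 promoters of raised genes (16.1%), 49 of 634 of lowered genes (7.73%) and 10.1% of those of all genes tested, and in 7.43% of the table. The TCF/LEF letters were found in 3 of 429 (0.699%), 5 of 634 (0.789%), 1.51% and 2.64% of the same sets. These shares are a description and carry no test, and a match is not a shown binding site. YPEL3 and GPR146, both among the falls, hold a match from the start on, YPEL3 of the forkhead letters and GPR146 of the E-box. 2 of the named genes hold a match in the bases before the start, DEPP1 among the falls with the forkhead letters and PLCH1 among the rises with the E-box. Their 250 bases before the start are printed from 5′ to 3′ on the gene's strand, with the match in capitals, at chr10:44978810-44979059 (minus strand) and chr3:155745072-155745321 (minus strand).
DEPP1: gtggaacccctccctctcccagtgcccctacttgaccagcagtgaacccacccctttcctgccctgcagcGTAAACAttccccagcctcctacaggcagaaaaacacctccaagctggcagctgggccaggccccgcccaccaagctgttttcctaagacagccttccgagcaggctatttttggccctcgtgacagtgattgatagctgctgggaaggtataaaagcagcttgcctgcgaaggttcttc
PLCH1: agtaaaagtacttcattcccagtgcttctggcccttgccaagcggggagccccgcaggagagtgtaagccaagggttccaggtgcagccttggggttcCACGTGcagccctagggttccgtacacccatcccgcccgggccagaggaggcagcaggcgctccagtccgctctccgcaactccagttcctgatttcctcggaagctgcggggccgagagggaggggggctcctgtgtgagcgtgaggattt
The DEPP1 match reads GTAAACA, the reverse complement of the forkhead letters, and begins 180 bases before the start. The PLCH1 match begins 152 bases before the start.

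More FOXO-driven genes fell than rose. Of 40 listed genes 39 matched a symbol and 36 were tested, 15 fell and 4 rose, with a median log2 fold change of -0.26. Of all genes tested 4.72% fell and 3.16% rose. The list was chosen with earlier results of these libraries known, and without 5 members that had been named before, 12 of 31 fell and 4 rose (median -0.25). Beside ABTB1, DEPP1 and YPEL3, the ubiquitin ligase adaptor KLHL24 was at 70.9, 73.3 and 69.2 CPM untreated and 35.9, 38.3 and 40.3 CPM treated (log2 fold change -0.90 ± 0.05, edgeR adjusted p = 3.86e-05). CCNG2, a cyclin associated with growth arrest, was at 22.4, 20.8 and 21.9 and 13.1, 13.6 and 13.4 CPM (-0.70 ± 0.06, edgeR adjusted p = 0.000172). YPEL5 (-0.52), the insulin receptor substrate IRS2 (-0.44), TRIB1 (-0.29) and INSR (-0.25) were also lower. TRIB1 had a mean of 23.5 CPM in the second untreated set, below its treated mean of 27.6 CPM. CCNG2 (29.6 CPM), IRS2 (21.0 CPM) and INSR (155 CPM) lay above their treated means there (13.3, 19.9 and 152 CPM).

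The FOXO genes themselves were among the falls. FOXO1, at 81.9, 82.5 and 84.9 CPM untreated and 65.8, 64.9 and 60.4 CPM treated, fell by 0.38 on the log2 scale (edgeR adjusted p = 0.000952), FOXO4 by 0.40 (edgeR adjusted p = 0.00773) and FOXO3 by 0.27 (edgeR adjusted p = 0.00458). In the second untreated set FOXO3 had a mean of 33.5 CPM, below its treated mean of 35.0 CPM. FOXO1 (74.2 CPM) and FOXO4 (13.2 CPM) lay above their treated means there (63.7 and 7.33 CPM). The 4 members that rose were BCL6, S1PR1 (0.67), which encodes a lymphocyte egress receptor, IL7R (0.37) and the CDK inhibitor gene CDKN1A (0.26). IL7R, the receptor of the cytokine that sustains precursor B cells, was at 335, 324 and 334 and 469.7, 414 and 401 CPM (edgeR adjusted p = 0.00406). RAG1, also on the list, fell by 0.28 (edgeR adjusted p = 0.0236), and that call was kept in only 1 of the 6 fits that left out a library, the one without treated replicate 3. Of the 19 called members 13 were called in all 6 such fits. The falls numbered 10 without untreated replicate 3 and 19 without treated replicate 3.

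**Figure D2:**
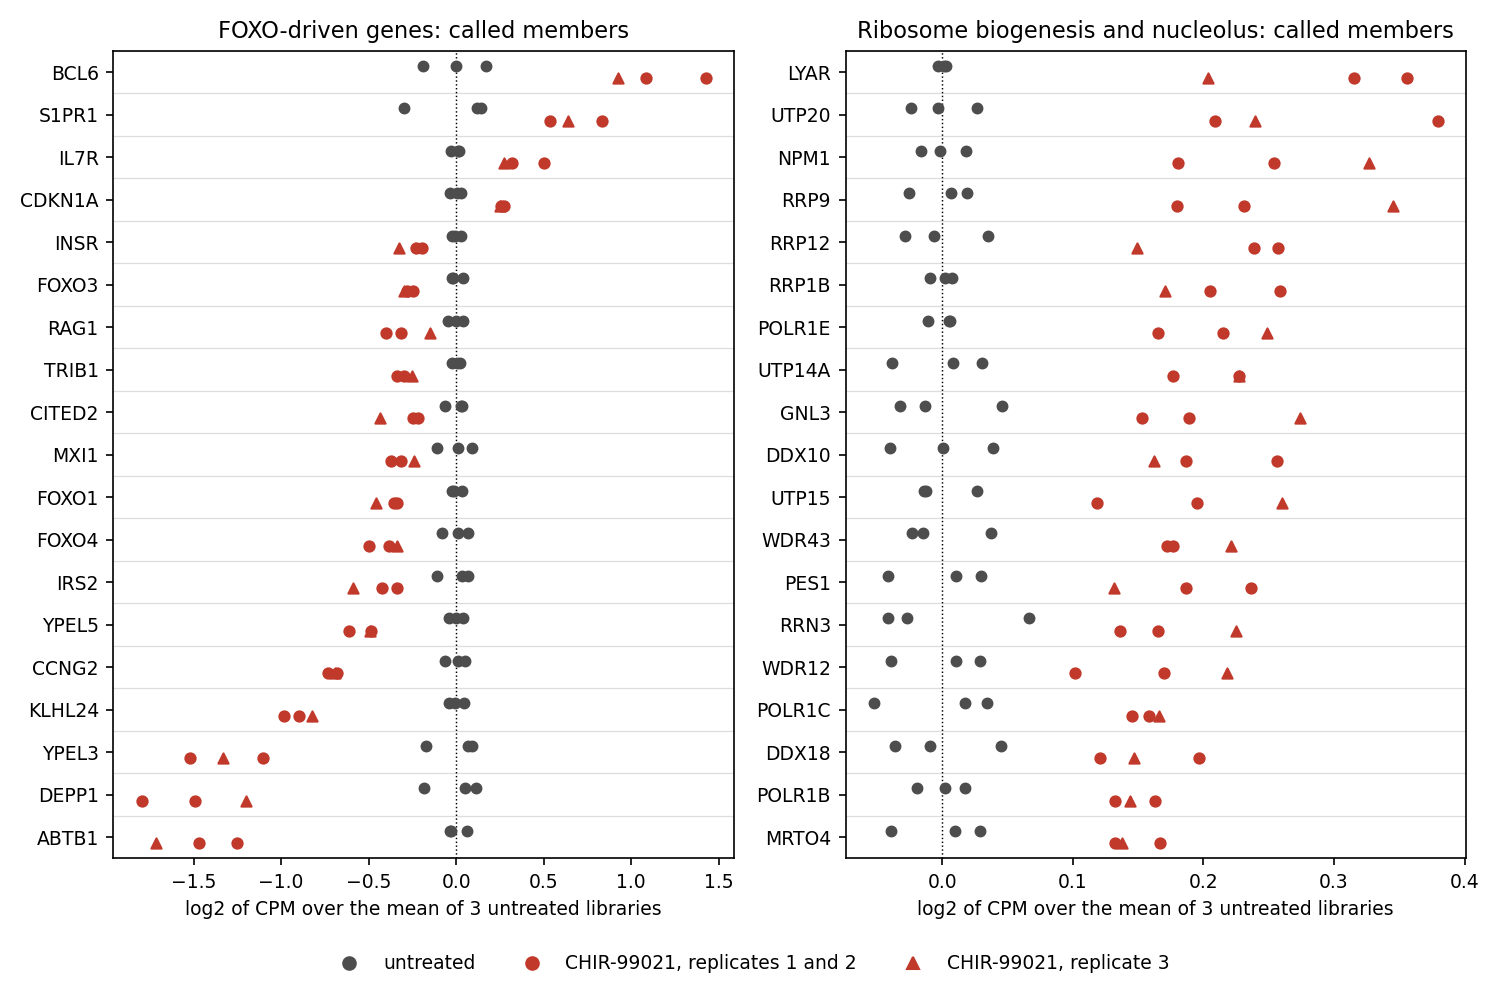
Called members of the FOXO list (left) and of the ribosome biogenesis list (right), as log2 of each library's CPM over the mean of the 3 untreated libraries. Grey points are untreated libraries and red points libraries with CHIR-99021, with replicate 3 as a triangle. 15 FOXO members lie to the left of the untreated libraries and 4 to the right, while all 19 ribosome biogenesis members lie to the right.

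Ribosome biogenesis went the other way, with small changes. Of 40 listed nucleolar and ribosome assembly genes 39 matched a symbol and were tested, 19 rose and none fell, with a median log2 fold change of 0.16. Rises made up 3.16% of all genes tested and falls 4.72%. Among genes with an average log2 CPM of at least 4 these shares were 5.47% and 6.89%. The treated libraries all lay above the untreated ones for 28 of the 39 genes, beside 14% of all genes tested. LYAR, a nucleolar protein gene, was at 95.5, 95.9 and 95.9 CPM untreated and 123, 119 and 110.3 CPM treated (log2 fold change 0.29 ± 0.05, edgeR adjusted p = 0.00382). UTP20, of the small-subunit processome, was at 105, 103 and 102 and 134, 119 and 122 CPM (0.28 ± 0.05, edgeR adjusted p = 0.00565). NPM1, which encodes nucleophosmin, went from 1789.8 ± 21.4 to 2136 ± 108 CPM (SD, n = 3; 0.26 ± 0.05, edgeR adjusted p = 0.0146), and its reads may be split with its processed copies. RRP9 rose by 0.26 and the polymerase I subunit POLR1E by 0.21. The number of rises was 32 without treated replicate 3, 10 and 13 without treated replicates 1 and 2, 11 without untreated replicate 1, and 2 without untreated replicate 2 or 3. No member fell in any of these fits, and LYAR and UTP20 were the ones called in all of them. The share of counts in ribosomal protein genes was 6.91% to 6.95% in untreated and 6.98%, 7.22% and 7.80% in treated libraries. ODC1, NME1 and CYCS, picked after their values were seen, rose by 0.34, 0.32 and 0.34.

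In the MYC, MAX and MXD network, where MYC and the MXD proteins compete for MAX and bind E-boxes, 6 of 11 tested genes fell and none rose. Of all genes tested 4.72% fell and 3.16% rose. Besides MYC these were MXD3, MXD4, MXD1 and MXI1, which oppose MYC, and MLXIP, a glucose-sensing relative. MXD3 was at 56.5, 63.9 and 68.1 CPM untreated and 32.2, 38.2 and 44.7 CPM treated (log2 fold change -0.70 ± 0.10, edgeR adjusted p = 0.00311), and MXD4 changed by -0.41 ± 0.05 (edgeR adjusted p = 0.00104). These 2 were called in all 6 fits that left out a library, and they were the only calls of the list without untreated replicate 2 or 3.

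Calls among mitosis and DNA replication genes were mostly falls of small size, and those among cyclins and CDK inhibitors went both ways. Beside them, 4.72% of all genes tested fell and 3.16% rose. Among genes with an average log2 CPM of at least 4 these shares were 6.89% and 5.47%. In the list of mitosis and spindle genes 11 of 38 fell and none rose (median -0.14), among them CDC25B, a phosphatase that starts mitosis (-0.36 ± 0.06, edgeR adjusted p = 0.00533), ESPL1 (-0.25), MKI67 (-0.25), KIF20A (-0.22) and TOP2A (-0.20). The falls numbered 17 without treated replicate 3, 6 without untreated replicate 1 and 2 without untreated replicate 2 or 3. Of 43 DNA replication genes 7 fell and 1 rose (RFC5, 0.21). TK1, thymidine kinase, was at 117, 119 and 119.7 and 96.7, 96.8 and 87.5 CPM (-0.34 ± 0.05, edgeR adjusted p = 0.00224), and E2F2 fell by 0.33 (edgeR adjusted p = 0.00302). That list held 13 falls without treated replicate 3, 3 without treated replicate 1 or untreated replicate 1, and 2 without untreated replicate 2 or 3. Among 22 tested cyclins and CDK inhibitors 5 fell and 3 rose. CCND3, a D-type cyclin of lymphoid cells, was at 501, 528 and 543 CPM untreated and 381, 399 and 407 CPM treated, without overlap (log2 fold change -0.40 ± 0.05, edgeR adjusted p = 0.00104). CDKN1A, which encodes p21, was at 114, 109 and 112 and 133, 135 and 133 CPM (0.26 ± 0.04, edgeR adjusted p = 0.003). CDK6 rose by 0.22 and CCNG1 by 0.23, and both calls were lost without untreated replicate 2 or 3. Without those libraries the list held 2 falls and 1 rise.

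Further genes that fell were picked after their values were seen, so that their shared direction follows from the choice and says nothing of growth-restraining genes in general. All 4 tested yippee-like genes fell: YPEL1 (-0.58), YPEL2 (-0.62), YPEL3 (-1.29) and YPEL5 (-0.52). PDCD4, a suppressor of translation, was at 51.4, 55.6 and 52.3 CPM untreated and 28.5, 30.9 and 26.9 CPM treated (-0.88 ± 0.06, edgeR adjusted p = 6.34e-05). HBP1, a repressor of cell-cycle genes, fell by 0.72, the mitophagy kinase gene PINK1 by 0.64, CREBRF by 0.75 and ING4 by 0.52. UBALD1 and UBALD2 fell by 0.68 and 0.98. BTG2, an antiproliferative gene, was the only call in the BTG/TOB family of 5 tested genes (32.9, 39.3 and 41.2 against 20.7, 23.7 and 22.2 CPM, log2 fold change -0.76 ± 0.08, edgeR adjusted p = 0.000705).

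In the B-cell identity list 39 of 41 matched genes were tested, 8 fell and 4 rose (median -0.04). Beside this list, 4.72% of all genes tested fell and 3.16% rose. The falls included CD34, CIITA, CD79B, BACH2 and ERG, and the rises were BCL6, IKZF3, IL7R and MME. CD79B, a signalling chain of the B-cell and pre-B receptors, was at 129, 133 and 137 CPM untreated and 90.7, 94.4 and 101 CPM treated (-0.48 ± 0.05, edgeR adjusted p = 0.000414). BACH2, a repressor of plasma cell differentiation, was at 337, 347 and 341 and 236, 243 and 272 CPM (-0.45 ± 0.05, edgeR adjusted p = 0.00106), and ERG changed by -0.37 ± 0.04 (edgeR adjusted p = 0.000573). MME, which encodes the surface marker CD10, went from 1239.5 ± 15.3 to 1428 ± 65.3 CPM (SD, n = 3; 0.21 ± 0.05, edgeR adjusted p = 0.0262), a call lost without any 1 untreated library. DNTT, the terminal transferase, was at 663, 652 and 617 CPM untreated and 488, 542 and 282 CPM treated, where replicate 3 was lowest, and it passed the threshold without that replicate (-0.31, edgeR adjusted p = 0.000266) but not with it (-0.56 ± 0.18, edgeR adjusted p = 0.0934). Without treated replicate 3 the list held 11 falls and 9 rises, and without any 1 untreated library 5 falls and 3 rises.

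Some other lymphocyte genes rose beside GZMA and CD96, and they were picked after their values were seen. In the lists of markers 3 T-cell genes were tested and TRAC alone was called, while CD247 and CD4 changed by -0.24 and -0.43 and NKG7, the 1 tested NK-cell gene, by -0.10. ZAP70, the kinase of the T-cell receptor that is also present in precursor B leukaemia, was at 75.1, 75.0 and 72.5 CPM untreated and 108, 113 and 116 CPM treated (0.60 ± 0.04, edgeR adjusted p = 6.34e-05). TOX was at 0.791, 0.877 and 0.853 and 2.74, 2.41 and 1.6 CPM (1.40 ± 0.21, edgeR adjusted p = 0.00309), and TRAC, the constant segment of the T-cell receptor alpha chain, at 5.34, 4.69 and 4.77 and 9.54, 8.38 and 6.49 CPM (0.71 ± 0.13, edgeR adjusted p = 0.00907). TRAC was not called without untreated replicate 2 or 3. The signalling regulators UBASH3B and DGKA rose by 0.66 and 0.44, the surface protein CD48 by 0.42 and IL18RAP by 2.35, from a mean of 0.111 to 0.584 CPM. JCHAIN, the joining chain of secreted immunoglobulin and so a B-lineage gene, rose by 1.28. CD3D, CD3E and CD2 remained without a count in these libraries, as given above.

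Of 4 tested receptor tyrosine kinases of early progenitors 2 fell and none rose, while adhesion molecules moved in both directions. PDGFRA, a receptor tyrosine kinase picked after its value was seen, was at 559.7, 586 and 573 CPM untreated and 283, 319.6 and 375 CPM treated (-0.81 ± 0.08, edgeR adjusted p = 0.000457). KIT fell by 0.56 (edgeR adjusted p = 0.00115), while FLT3 was not called (0.14 ± 0.07, edgeR adjusted p = 0.275). Of 21 tested adhesion and homing receptors 4 rose and 2 fell, beside 3.16% and 4.72% of all genes tested. P2RY14, a receptor for UDP-sugars, was at 1.15, 1.04 and 1.10 CPM untreated and 2.76, 2.55 and 2.76 CPM treated (1.29 ± 0.12, edgeR adjusted p = 0.000335). The integrin gene ITGA4 was at 323, 322 and 317 and 417, 381 and 397 CPM (0.31 ± 0.04, edgeR adjusted p = 0.00223). CXCR4, the receptor that holds precursors in the bone marrow, was at 426, 439.9 and 447 and 346, 354 and 366 CPM (-0.30 ± 0.04, edgeR adjusted p = 0.00296). ITGA6 fell by 0.21 (edgeR adjusted p = 0.02). P2RY14, ITGA4 and CXCR4 were called in all 6 fits that left out a library, and the other 3 calls (S1PR1, CD58 and ITGA6) were not. The list held 2 rises and 1 fall without treated replicate 1 or untreated replicate 3.

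Antigen presentation and interferon response genes fell or were not called. Of 49 tested members 17 fell and none rose, with a median of -0.20, beside 4.72% lower and 3.16% higher among all genes tested. The treated libraries lay below the untreated ones without overlap for 28 of the 49, beside 15.9% of all genes tested. By parts, 8 of 12 MHC class II genes fell (median -0.32), 1 of 13 class I genes (median -0.09) and 8 of 24 interferon-induced genes and factors (median -0.23). CIITA, the transactivator of the class II genes, was at 269, 285 and 282 CPM untreated and 194, 203 and 179.8 CPM treated (-0.53 ± 0.05, edgeR adjusted p = 0.00039). CD74, the class II invariant chain, was at 931, 919 and 924 and 732, 794 and 689 CPM (-0.32 ± 0.06, edgeR adjusted p = 0.00876), and it was not called without untreated replicate 2 or 3. HLA-DPB1 changed by -0.39 ± 0.06 (edgeR adjusted p = 0.00333) and HLA-DMA by -0.32 ± 0.05 (edgeR adjusted p = 0.00363), and values of HLA genes are uncertain because related copies share reads. Among interferon genes, IFIT2 fell by 0.47, GBP4 by 0.40, IRF7 by 0.38 and STAT2 by 0.28. The falls in the whole list numbered 26 without treated replicate 3, 11 without untreated replicate 2 and 9 without untreated replicate 3, with no rise in any of these fits. In the second untreated set CIITA stood at 145, 176 and 182 CPM, below the treated libraries in 2 of 3 replicates, and CD74 at 839.7, 950.4 and 977 CPM.

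The BCL2 family, which decides on mitochondrial apoptosis, held 4 falls and 2 rises among 19 tested genes. Falls made up 4.72% of all genes tested and rises 3.16%. BBC3, which encodes the pro-apoptotic protein PUMA, was at 4.21, 4.63 and 4.30 CPM untreated and 2.20, 2.43 and 2.75 CPM treated (-0.82 ± 0.10, edgeR adjusted p = 0.00144). BMF, of the same BH3-only class, was at 4.20, 3.94 and 3.94 and 1.33, 2.29 and 2.58 CPM (-0.93 ± 0.17, edgeR adjusted p = 0.0106). BNIP3L fell by 0.48, and the anti-apoptotic gene BCL2L1 by 0.27 (edgeR adjusted p = 0.00642). BID (0.20) and PMAIP1 (0.24), both pro-apoptotic, rose. BID and PMAIP1 were not called without untreated replicate 2 or 3.

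Metabolic lists differed in the share of genes called. It was 5.26% for glycogen metabolism, 8.33% for cholesterol and 8.82% for amino acid stress, and 18% for lysosome and autophagy, 21.6% for glycolysis and hypoxia and 25.0% for PI3K and mTOR regulators, beside 7.88% of all genes tested and 12.4% of the more abundant ones. In glycogen metabolism, where GSK3 was first described as the kinase of glycogen synthase, 1 of 19 tested genes was called. This was the branching enzyme gene GBE1, at 160.3, 161 and 160.1 CPM untreated and 211, 205 and 211 CPM treated, without overlap (log2 fold change 0.38 ± 0.04, edgeR adjusted p = 0.00034). Of 37 glycolysis and hypoxia genes 5 fell and 3 rose. NDRG1, a stress-responsive gene, was at 6.62, 6.75 and 6.43 and 3.6, 3.66 and 3.12 CPM (-0.93 ± 0.09, edgeR adjusted p = 0.00034), and PFKL, phosphofructokinase, fell by 0.36 (edgeR adjusted p = 0.00325). EPAS1, which encodes HIF2A, rose by 0.63 (edgeR adjusted p = 0.0178). The glycolysis and hypoxia list held 4 falls and no rise without untreated replicate 2 or 3, 5 falls and no rise without treated replicate 1, and 6 falls and 10 rises without treated replicate 3. Cholesterol genes gave 3 falls of 36, ABCG1 (-0.34), ABCA1 (-0.30) and SREBF2 (-0.22), and amino acid stress genes 2 rises and 1 fall of 34. In lysosome and autophagy 7 of 50 fell and 2 rose, with the kinase gene ULK1 (-0.39), WIPI2 (-0.32) and ATG2A (-0.30) as the largest falls. Of these 9 calls 2 were kept in all 6 fits that left out a library. PI3K and mTOR regulators gave 6 falls and 1 rise of 28: DEPTOR, an mTOR inhibitor, fell by 0.74 (edgeR adjusted p = 0.00939) and the adaptor PIK3AP1 rose by 0.26 (edgeR adjusted p = 0.00769). That list had no call without untreated replicate 2 and 1 fall without untreated replicate 3.

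Among lists of signalling and transcription factors, JAK-STAT and cytokine genes gave 4 falls and 3 rises of 26, with PIM1 (-0.45) and SOCS2 (-0.35) lower and IL7R higher. For this list and the 2 glucocorticoid lists below, the background was 4.72% lower and 3.16% higher among all genes tested. Of 14 tested glucocorticoid-responsive genes 3 fell and 1 rose. TSC22D3, which encodes the glucocorticoid-induced leucine zipper, was at 19.6, 23.4 and 21.9 and 17.5, 18.6 and 14.9 CPM (-0.35 ± 0.09, edgeR adjusted p = 0.0418). NR3C1, the glucocorticoid receptor, was at 243, 239.7 and 241 and 203, 198 and 221 CPM (-0.22 ± 0.05, edgeR adjusted p = 0.017). In the second untreated set TSC22D3 stood at 12.2, 12.2 and 12.5 CPM, below every treated library. The mean of NR3C1 there was 219 CPM, above the treated mean of 207 CPM. Both calls were lost without untreated replicate 2 or 3 or treated replicate 1, that of NR3C1 also without untreated replicate 1 or treated replicate 2, and P2RY14 was the one member called in all fits that left out a library. FKBP5 was at 114, 114 and 111 CPM untreated and 113, 117 and 59.9 CPM treated, where only replicate 3 was low, and it was not called (edgeR adjusted p = 0.54). The list of the receptor complex, which also holds NR3C1 and FKBP5, gave 2 rises among 20 tested genes, HSPA8 (0.24) and FKBP4 (0.23), besides the fall of NR3C1.

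The remaining lists are given by their counts, beside 7.88% called among all genes tested, 4.72% lower and 3.16% higher. AP-1 and immediate-early factors gave 2 rises and 2 falls of 32, KLF factors 1 fall of 12, circadian clock genes 1 rise and 1 fall of 19, and the TSC22 family 1 fall of 4. The list of TXNIP, related arrestins, thioredoxins and thioredoxin reductases gave 3 rises (ARRDC3, TXN and TXNRD1) and 1 fall (ARRDC5) of 10 (40.0%). TXNIP itself was not called. No call in these 5 lists was kept in all 6 fits that left out a library, and without treated replicate 3 the TXNIP list held 5 rises and 3 falls. NF-kB factors gave 1 fall of 25, CYLD, a deubiquitinase that restrains the pathway (-0.36 ± 0.05, edgeR adjusted p = 0.00151). Among 21 tested microtubule and GSK3 substrate genes 3 fell, NFATC4 (-0.43), the microtubule destabiliser STMN1 (-0.27) and DPYSL2 (-0.18), and none rose.

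**Figure D3:**
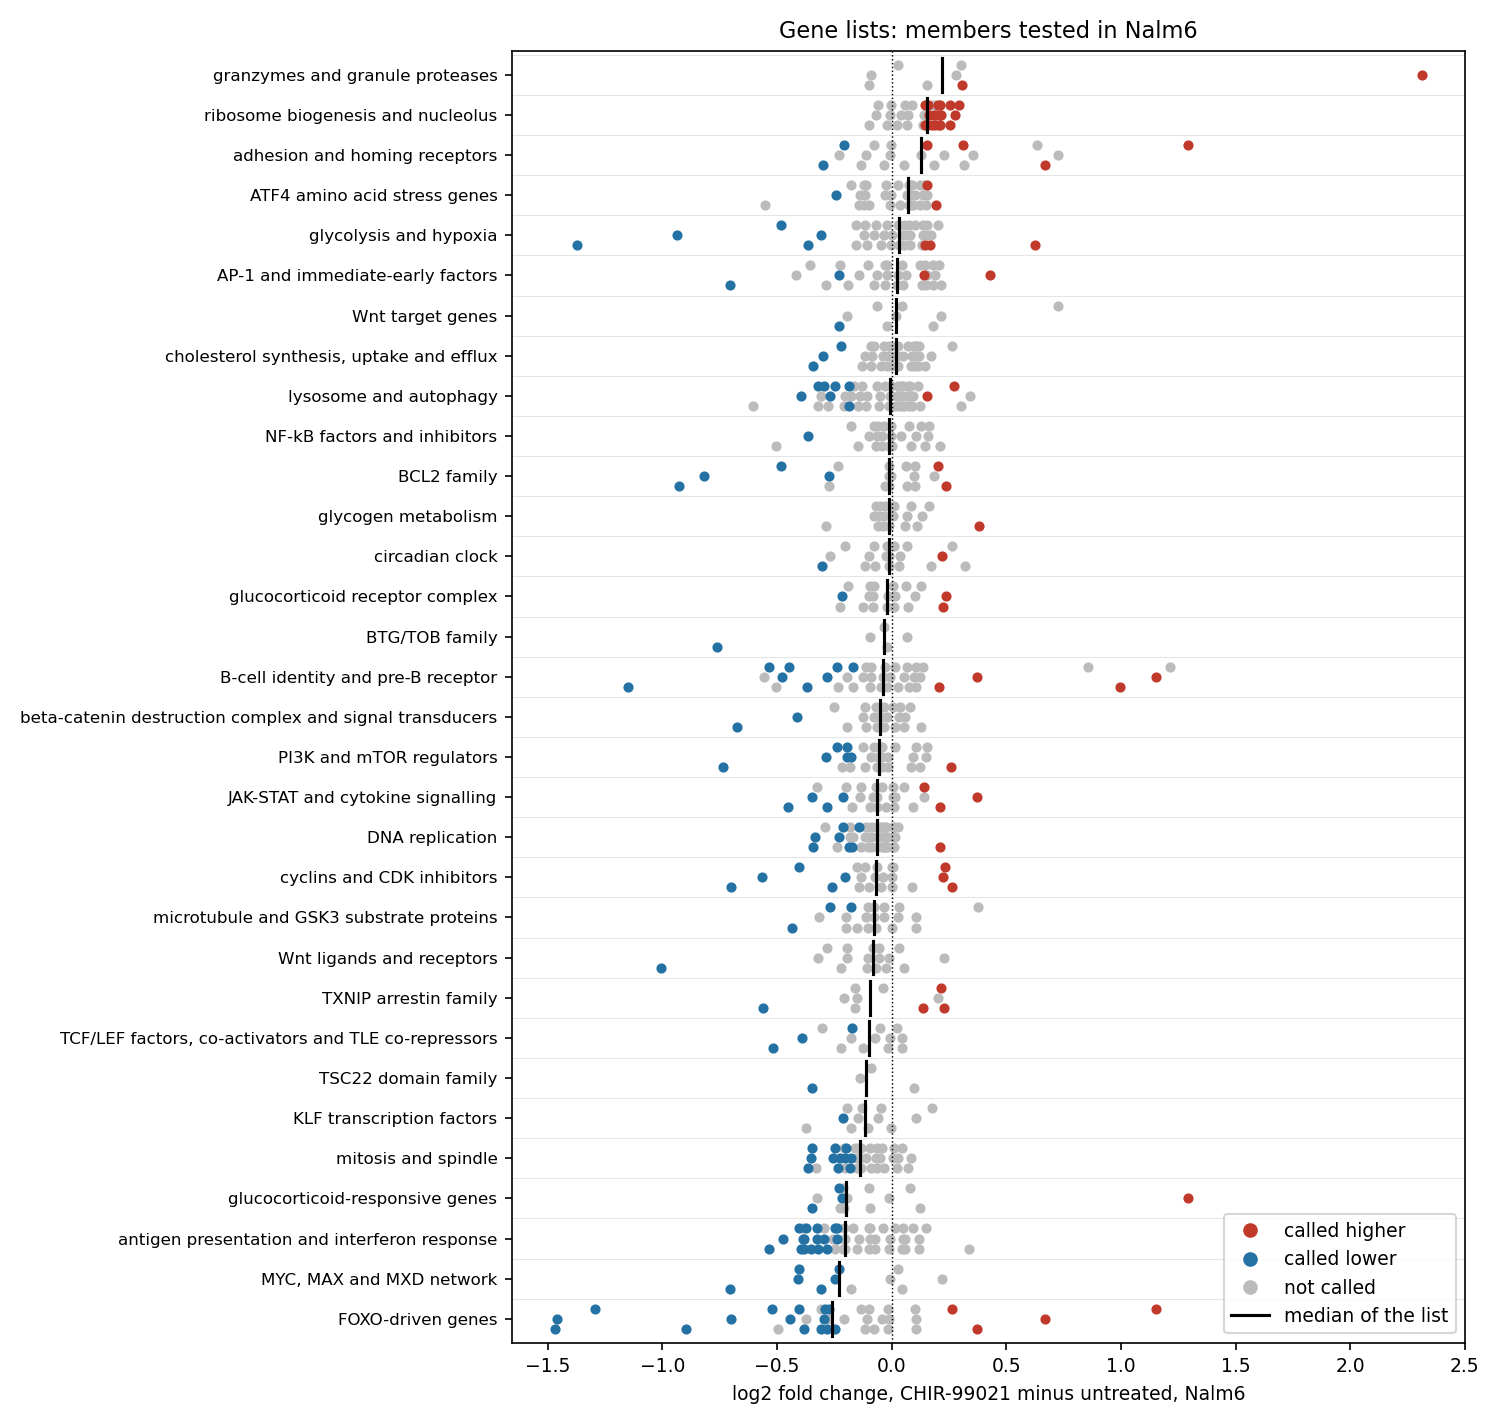
Log2 fold change under CHIR-99021 in Nalm6 for every tested member of 32 gene lists, ordered by the list's median (black bar). Red points were called higher, blue points called lower and grey points not called. The FOXO list is lowest with a median of -0.26, the ribosome biogenesis list holds 19 red points and no blue one, and the Wnt target list holds 1 blue point and a median of 0.02.

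CEM cells received CHIR-99021 at 2 µM, a higher dose than the 0.5 µM used in Nalm6, so line and dose cannot be told apart in what follows. In CEM 1865 of 17200 genes were called (10.8%), 931 higher (5.41%) and 934 lower (5.43%). The count was 1136, 1104 and 1064 without untreated CEM replicates 1, 2 and 3 and 1001 without treated CEM replicate 2. Among the genes that rose in Nalm6, 525 were tested in CEM, 181 were called higher there (34.5% of them and 21.8% of the CEM rises tested in both) and 11 lower. Of the genes that fell, 742 were tested, 278 were called lower (37.5%, and 35.6% of the CEM falls) and 17 higher. The 2 comparisons share no library. KLHL24 (-1.20 in CEM), ABTB1 (-1.15), BBC3 (-1.06), FRAT1 (-0.72), PDCD4 (-0.74) and UBALD2 (-0.72) were called lower in CEM too. Ribosome biogenesis held 16 rises and no fall among 39 tested genes in CEM, and the FOXO list 12 falls and 7 rises among 32. AXIN2 was not called in CEM either (0.56, edgeR adjusted p = 0.0644).

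The response differed between the lines, as tested by the contrast of CEM minus Nalm6, in 235 of 20005 genes (1.17%), and in 388 without treated Nalm6 replicate 3. It was 150 and 153 without untreated Nalm6 replicates 2 and 3 and 149 without untreated CEM replicate 3. In all, 9 of the 14 largest Nalm6 rises responded less in CEM by this contrast. They were chosen by their change in the same Nalm6 libraries, and that choice favours a smaller response in CEM. GZMA changed by 0.44 in CEM, a difference of -1.87 (edgeR adjusted p = 6.91e-06). HOMER2 (-0.09 in CEM, difference -1.28, edgeR adjusted p = 4.4e-05) and CD96 (0.03, difference -1.15, edgeR adjusted p = 5.85e-05) were not called in CEM on their own. CD34 went in opposite directions: it fell in Nalm6 and rose in CEM, from 7.83 ± 0.517 to 13.8 ± 0.951 CPM (log2 fold change 0.84, difference 2.00, edgeR adjusted p = 4.93e-07). TRIB1 fell by 0.29 in Nalm6 and rose by 3.19 in CEM, where its untreated level was 0.179 ± 0.112 CPM (difference 3.48, edgeR adjusted p = 1.23e-06). No member of the ribosome biogenesis list and 4 members of the FOXO list differed between the lines.

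**Figure D4:**
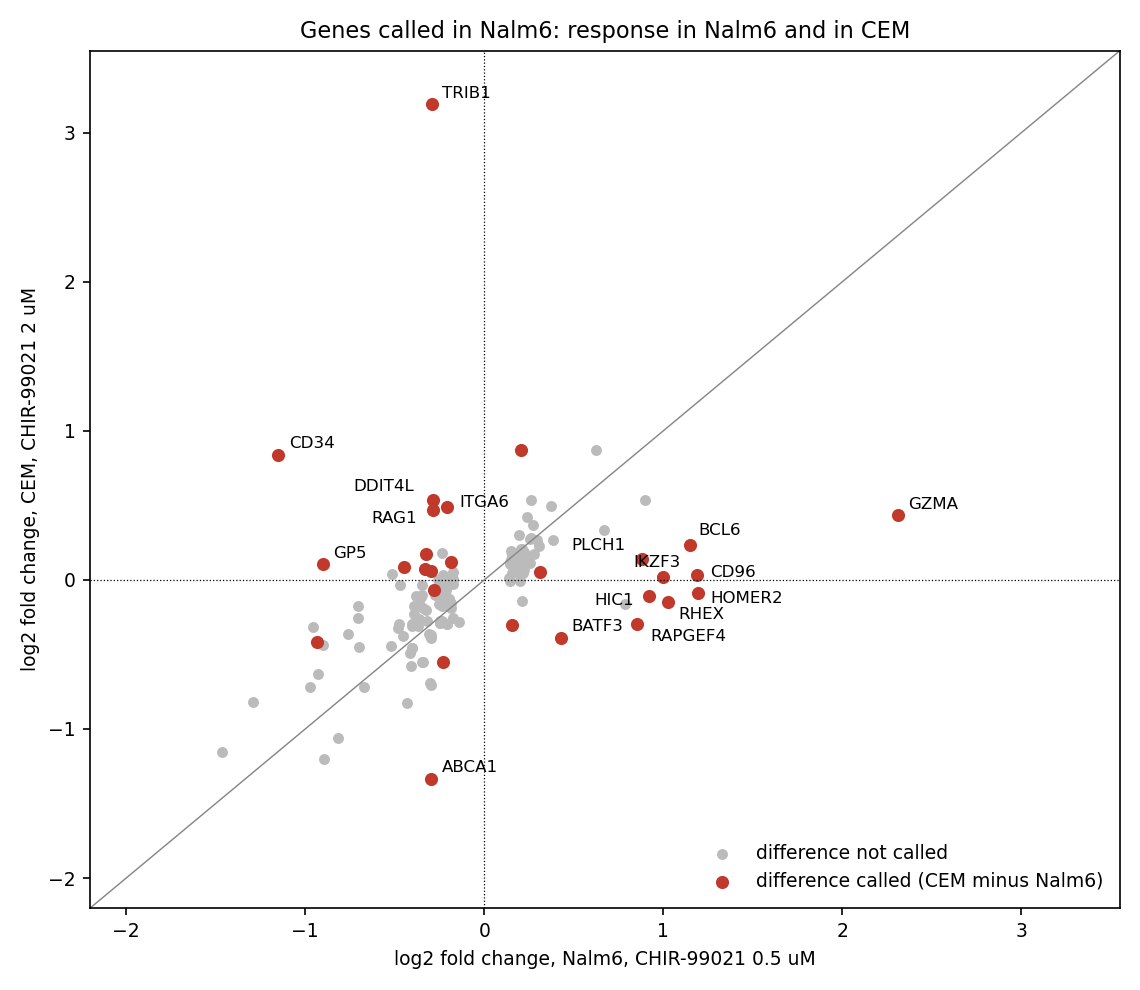
Log2 fold change under CHIR-99021 in Nalm6 (0.5 µM, horizontal) and in CEM (2 µM, vertical) for the named rises and falls and the called list members that were tested in both lines (160 genes). Red points mark the 28 genes whose difference between the lines was called, and the diagonal is equality. GZMA lies far to the right near the horizontal axis, CD34 in the upper left and TRIB1 at the top.

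Dexamethasone in Nalm6 was measured against the second untreated set, so it shares no library with the CHIR-99021 comparison. It called 10412 of 17217 genes (60.5%), 30.2% higher and 30.2% lower. Of 567 CHIR-99021 rises tested there, 424 fell under dexamethasone (74.8% of them and 8.17% of the dexamethasone falls) and 72 rose (12.7%). Of 848 CHIR-99021 falls, 482 rose (56.8%, and 9.93% of the dexamethasone rises) and 225 fell (26.5%). Among genes not called under CHIR-99021 28.2% rose and 29.7% fell. BCL6 changed by -2.70 under dexamethasone, CCM2L by -2.63 and LYAR by -0.94, and BMF by 4.02, DEPP1 by 2.20, BTG2 by 3.00, KLHL24 by 1.21 and CIITA by 2.24. All 8 changes were called and opposite in sign to those with CHIR-99021. Of the 14 largest rises named above, 7 fell under dexamethasone, 3 rose and 4 were not called. Of the 14 largest falls, 10 rose, 3 fell and 1 was not called. The wider set of all rises past a log2 fold change of 1 did not share a direction as a group. Of 25 CHIR-99021 rises past a log2 fold change of 1 that were tested, 13 rose under dexamethasone and 10 fell. Of 24 such falls, 16 rose and 5 fell. P2RY14 rose in both comparisons (1.29 and 8.57), and CCND3 (-0.40 and -0.96) and MYC (-0.23 and -1.08) fell in both.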

How the data were processed

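RNA of the Nalm6 and CEM cell lines was sequenced from Illumina libraries, 3 per group. The authors deposited raw read counts per gene and library in the column layout of STAR's gene counts; the submitters' processing notes name hg19, Bowtie2 and DESeq2 without a role or version, and the counting settings are not given in the sources used here. Column 4 (1 strand) was used, since it held 12.3 to 14.2 times the counts of column 3 in the 6 Nalm6 libraries of the comparison. Rows of totals that name no gene stayed out: unmapped reads were 5.00% to 9.36% of a library, multiply mapped reads 5.02% to 5.59%, reads outside genes 25.2% to 29.7% and ambiguous reads 4.70% to 5.67%. Levels are CPM, counts over the library's gene total times 1000000, and 0 in a library allows up to 3 counts, at most 0.0767 CPM in the shallowest of the 6 (counting error only, as reads carry no molecular identifiers).

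The groups of a comparison entered a fit of their own in edgeR 4.0.16 in R 4.3.3 (filterByExpr, TMM, quasi-likelihood F test, Benjamini-Hochberg adjustment over all genes tested), called at an adjusted p under 0.05. The fit was tested on simulated counts. Standard errors of log2 fold changes come from the F statistic. CEM minus Nalm6 was a contrast in a fit of all 4 groups. Where nothing says that libraries came from separate cultures, p-values measure only the spread between these libraries. The deviations of replicates with the same number showed no positive correlation, which does not settle whether a number marks a shared day or culture.

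Members and lists were chosen with earlier results of these data known. The 38 gene lists hold 906 genes, of which 901 matched a symbol; the others are CD24, SOD2, TRBC1, PECAM1 and BOP1. A further list and a member of another were set aside and are not reported here. Named genes are the 14 largest rises and falls among called genes that carry a symbol, reach an average log2 CPM of 1 and have groups that do not overlap, up to 4 called and 3 defining members of each list, AXIN2, LEF1, MYC, NR3C1, TSC22D3, TLE1, GSK3A, GSK3B and CTNNB1, and genes the text says were picked after their values were seen. Alternatives were DESeq2 1.42.0, size factors by RLE, the unstranded column, robust moderation, a replicate block, keeping every gene or only those with 10 or more counts throughout, and leaving out each library. Promoters were read from RefSeq's GRCh38.p14 table; since the processing notes name hg19, no other gene coordinates are given.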

Additional observations from a re-analysis of the deposited data

Results flagged for a closer look

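For 28 of the genes named above or called in a list, the response to CHIR-99021 differed between CEM (2 µM) and Nalm6 (0.5 µM) by edgeR's test of the difference itself, so line and dose cannot be told apart. Values are log2 differences, CEM minus Nalm6. Among the largest Nalm6 rises they were -1.87 for GZMA, -1.28 for HOMER2, -1.15 for CD96, -0.91 for BCL6, -1.17 for RHEX, -0.97 for IKZF3, -1.02 for HIC1, -0.73 for PLCH1 and -1.15 for RAPGEF4. Among the largest falls they were 2.00 for CD34, 0.52 for NDRG1 and 1.01 for GP5. The largest rises and falls were chosen by their change in Nalm6, which favours a smaller response in CEM.

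TRIB1, which encodes a pseudokinase, had the largest difference (3.48). B-lineage and FOXO list members with a difference were RAG1 (0.75), MME (0.67), BACH2 (0.54) and DDIT4L (0.83), the last from the list of PI3K and mTOR regulators. Adhesion receptors were ITGA6 (0.70), CXCR4 (0.36), ITGA4 (-0.25) and CD58 (-0.45). The others were MYC (-0.32), E2F2 (0.41), STAT2 (0.22), the cholesterol exporter ABCA1 (-1.03), the autophagy receptor SQSTM1 (0.31), HLA-DMA (0.50) and BATF3 (-0.81).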

How the results depend on the processing

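No called value changed direction under any alternative that gave it a value. Uncalled values near 0 did change sign, among them GSK3B (-0.04 to 0.06) and APCDD1 (-0.01 to 0.05). Of 2469 alternative values of 190 genes named or called in a list, 2009 stayed on the same side of the threshold, 458 lost the call and 2 gained one. The Nalm6 count of 1425 called genes was 2320 without a filter on low counts, 925 with the replicate block, and 409 to 2708 with 1 library left out. The count past a log2 fold change of 1 in either direction (57) was 30 under DESeq2, 98 without a filter and 30 to 104 with 1 library left out. For CEM (1865) leaving out 1 library gave 1001 to 1948. The 235 genes that differed between the lines were 407 under DESeq2, 473 without a filter and 149 to 388 with 1 library left out. The dexamethasone count stayed within 1.5 times under the alternatives run. Rises made up 50.1% of the calls without treated replicate 3, 25.2% and 26.9% without untreated replicates 2 and 3, and 40.1% with all libraries; the cause was not tested. The replicate number was checked as a block because the labels number replicates 1 to 3 in each group. The correlations of the deviations of same-numbered libraries were -0.007, -0.040 and -0.041, and those of differently numbered pairs ran from -0.031 to 0.074. The labels do not say whether a number marks a shared day or culture, and these correlations cannot settle it. With the block, 904 of its 925 calls were among the 1425. With 39113375 to 61930057 counts per library, depth limits mainly genes under about 1 CPM, such as IL18RAP.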
